A study of Homo sapiens with 8 samples.

Results

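The step from mesoderm to cardiac progenitors was followed in the accessible chromatin of human cells between day 2 and day 5 of cardiac differentiation. The peak lists of 2 mesoderm libraries (MES) and 2 cardiac progenitor libraries (CP) were merged into 215512 regions on chromosomes 1 to 22 and X, and each region was classified by the libraries that listed a peak in it. A region with a peak in both CP lists and in neither MES list was called opened, the reverse was called closed, and a region with a peak in all 4 lists was called kept. There were 6161 opened regions (2.86% of the merged regions), 17733 closed regions (8.23%) and 54777 kept regions (25.4%). The lists of all 8 libraries of the series merged into 285853 regions.

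RUES2, a line of human embryonic stem cells in long use, gave all libraries, so that every stage rests on 1 line. MES cells were collected after the Wnt pathway had been switched on with CHIR-99021, a GSK3 inhibitor, and CP cells after it had then been blocked with Xav-939. Undifferentiated cells (hESC, day 0) and cardiomyocytes (CM, day 14) were the other stages, with 2 libraries each. The series calls the libraries of a stage biological replicates but does not say how the cultures were separated, so p-values measure only the spread between these libraries. In bulk nuclei, fewer cells of a type and less accessibility per cell cannot be told apart.

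ATAC-seq marks DNA that the Tn5 transposase can reach, mostly promoters and enhancers that are bound by transcription factors. Mesoderm forms in the primitive streak under Wnt, NODAL and BMP signals and uses the T-box factors TBXT and EOMES. Cardiac progenitors follow when Wnt signalling falls, and they use GATA, HAND, NKX, T-box and MEIS factors to prepare the contractile genes.

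The DNA under some of these regions shows what was counted in the motif results. Each window below holds 200 bases around a summit, on the plus strand of hg38 from 5′ to 3′, and lies outside annotated exons. Capitals mark the letters AGATAA of a GATA site, TGACAG of a MEIS or TGIF site or GGTGTGA of a T-box site on either strand, and in the EDIL3 window a longer run that is described with the motifs. TBX20 stands for a cardiac regulator, and the opened windows near MRPS30, TGFB2 and PHACTR1 are among the 10 opened regions with the highest folds.
TBX20 opened, chr7:35336580-35336779: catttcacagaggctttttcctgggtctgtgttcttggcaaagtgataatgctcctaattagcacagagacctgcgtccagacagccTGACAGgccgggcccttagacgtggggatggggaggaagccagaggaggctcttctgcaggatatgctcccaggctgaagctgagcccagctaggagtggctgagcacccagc
MRPS30 opened, chr5:44871474-44871673: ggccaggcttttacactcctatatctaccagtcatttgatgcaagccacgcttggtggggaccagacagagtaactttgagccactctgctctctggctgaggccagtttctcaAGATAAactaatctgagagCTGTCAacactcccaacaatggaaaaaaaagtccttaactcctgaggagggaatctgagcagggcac
TGFB2 opened, chr1:218735661-218735860: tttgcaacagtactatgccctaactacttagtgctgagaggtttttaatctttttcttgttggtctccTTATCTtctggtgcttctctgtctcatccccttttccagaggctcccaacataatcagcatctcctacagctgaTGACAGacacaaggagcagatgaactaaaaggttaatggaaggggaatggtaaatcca
PHACTR1 opened, chr6:12528595-12528794: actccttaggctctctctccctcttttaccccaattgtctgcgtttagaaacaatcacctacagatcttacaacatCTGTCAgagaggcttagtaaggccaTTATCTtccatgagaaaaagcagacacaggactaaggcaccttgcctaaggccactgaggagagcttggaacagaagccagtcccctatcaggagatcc
The closed windows belong to the streak genes TBXT and EOMES and, near EDIL3, to 1 of the 10 closed regions with the highest folds.
TBXT closed, chr6:166223197-166223396: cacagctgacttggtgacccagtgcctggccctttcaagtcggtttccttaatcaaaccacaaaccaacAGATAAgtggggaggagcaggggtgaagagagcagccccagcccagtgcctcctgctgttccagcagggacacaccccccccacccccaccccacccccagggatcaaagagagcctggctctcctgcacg
EOMES closed, chr3:27666834-27667033: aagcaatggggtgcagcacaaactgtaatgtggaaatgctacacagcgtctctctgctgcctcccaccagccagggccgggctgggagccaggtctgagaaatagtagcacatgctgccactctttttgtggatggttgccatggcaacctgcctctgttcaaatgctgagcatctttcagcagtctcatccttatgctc
EDIL3 closed, chr5:85500971-85501170: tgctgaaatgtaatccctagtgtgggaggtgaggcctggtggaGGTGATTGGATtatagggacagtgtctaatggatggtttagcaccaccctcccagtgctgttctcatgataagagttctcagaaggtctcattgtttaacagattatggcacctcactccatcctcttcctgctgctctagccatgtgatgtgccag
The kept windows near HAND1 and PDGFRA had a peak in all 4 libraries and a higher level in CP.
HAND1 kept, chr5:154576559-154576758: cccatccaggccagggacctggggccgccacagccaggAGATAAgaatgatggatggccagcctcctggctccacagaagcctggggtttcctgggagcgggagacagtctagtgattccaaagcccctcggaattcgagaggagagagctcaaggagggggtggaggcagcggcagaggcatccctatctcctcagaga
PDGFRA kept, chr4:54197403-54197602: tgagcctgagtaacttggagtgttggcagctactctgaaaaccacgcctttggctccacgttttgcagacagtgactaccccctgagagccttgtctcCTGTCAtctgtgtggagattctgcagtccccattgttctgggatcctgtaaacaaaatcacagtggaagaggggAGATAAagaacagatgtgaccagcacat
The windows of the highest opened, highest closed and kept regions were chosen for printing after their values were seen. No window of the required kind was found for opened regions of NKX2-5, HAND2, TBX5, GATA6 and TNNT2 or for closed regions of MESP1 and FOXA2.

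The MES lists held 108340 and 156179 peaks and the CP lists 99789 and 120133, in the order of replicate 1 and 2. The median peak reached a fold of 5.04 and 4.90 over the local background in MES and of 4.42 and 5.29 in CP. Its median −log10 q was 11.8 and 12.1 in MES but 8.76 in CP replicate 1 against 12.2 in CP replicate 2. A peak in 1 library alone was the most common outcome, with 94010 of the merged regions (43.6%). MES replicate 2 alone listed 41998 of them and CP replicate 2 alone 26007. The 9990 regions shared by MES replicate 2 and CP replicate 2 only, a pair from different stages, outnumbered the opened regions. An exact 2-sided test of 2 libraries against 2 cannot give a p below 0.333, so the classes were counted without a test.

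Closed regions were 2.88 times as many as opened ones. The excess depended on the libraries. Without CP replicate 1, 32386 regions were opened and 24844 closed, which turned the direction. Without MES replicate 1 the counts were 7297 and 60284, without MES replicate 2 12671 and 29433, and without CP replicate 2 21503 and 28425. With all lists cut to the 99789 peaks of highest −log10 q, the counts were 7927 opened and 12574 closed.

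Opened and closed regions lay mostly far from promoters, unlike kept ones. The median distance to the start of a protein-coding transcript was 55925 bp for opened, 58931 bp for closed and 17153 bp for kept regions. A promoter, taken as 1 kb on either side of such a start, was touched by 207 opened regions (3.36%), 681 closed regions (3.84%) and 16327 kept regions (29.8%), against 10.7% of all merged regions. Of the opened regions, 41.7% lay in introns of protein-coding genes and 49.3% between genes. The median width was 377 bp for opened, 340 bp for closed and 617 bp for kept regions, and the median GC content of the 200 bp around the summit was 52.0%, 49.5% and 58.5%.

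The hESC and CM libraries, which took no part in the definition, listed the opened and closed regions to different degrees. Of the opened regions, 46.4% and 31.2% were listed in the CM libraries and 10.3% and 25.2% in the hESC libraries. Closed regions were listed less often than opened ones in CM, at 8.80% and 3.33%, and more often in hESC, at 34.1% and 48.0%. Among all merged regions the shares were 32.3% and 20.9% in CM and 38.3% and 51.7% in hESC. Opened regions thus lay above these shares in CM and below them in hESC, and closed regions lay below them in both stages. Both CM lists held 1609 opened regions (26.1%, 95% Wilson interval 25.0 to 27.2) and 282 closed ones (1.59%). Both hESC lists held 5362 closed regions (30.2%, 29.6 to 30.9) and 449 opened ones (7.29%). Of all merged regions, 18.2% were in both CM lists and 35.5% in both hESC lists, so that the closed share in hESC was below that of all. The Wilson intervals cover counting error only.

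**Figure D1:**
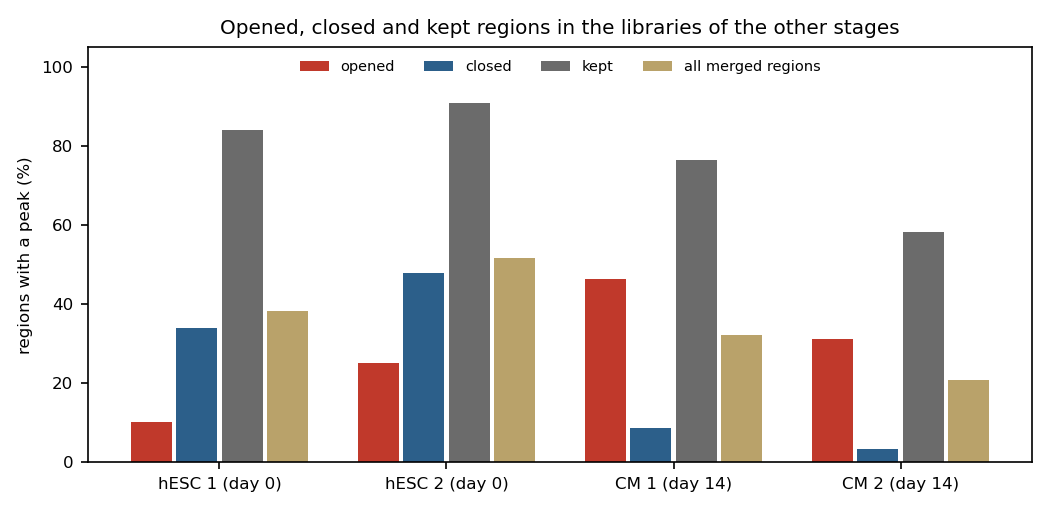
Share of opened, closed, kept and all merged regions (y axis, percent) with a peak in each hESC and CM library (x axis). Opened regions reached 46.4% and 31.2% in CM against 8.80% and 3.33% for closed regions, and closed regions reached 34.1% and 48.0% in hESC against 10.3% and 25.2% for opened regions.

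Absence from the neighbouring stage's lists was set beside that of all merged regions. Neither hESC list held 8548 of the closed regions (48.2%), near the 45.5% of all merged regions. These closed regions were in the mesoderm lists but in no list of undifferentiated cells. Neither CM list held 48.5% of the opened regions, below the 65.0% of all merged regions. The opened regions listed in both CM libraries had higher peaks in CP, with a median fold of 4.49 and 8.06 in CP replicate 1 and 2, than those in neither CM list, with 3.99 and 4.65.

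The highest opened regions lay mostly between genes. By the lower of the 2 CP folds they were nearest to REG3G (12.2 and 16.3 in CP replicate 1 and 2), MRPS30 (11.7 and 17.3), TGFB2 (11.5 and 16.7) and PHACTR1 (10.9 and 13.2), and they included those near PLPPR4, CBLN2, RAPGEF2, PGAP1 and CAB39L. TGFB2 encodes a signal of the TGF-beta family that acts in heart valve development, and its region lay 389519 bp from the transcript start. The nearest gene is a label of position here, since the REG3G region lay 471383 bp from its start. Only the CAB39L region, with folds of 10.5 and 16.9, touched a promoter. It was also the 1 region of the 10 with a peak in hESC (3.87 and 6.76). The PHACTR1 region was listed in both CM libraries, with folds of 5.38 and 7.53.

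Among closed regions the highest lay near MRPS30 (16.3 and 16.4 in MES replicate 1 and 2), EDIL3 (14.2 and 16.9), SYT1 (13.4 and 15.4), H3Y1 (13.6 and 13.3) and FOXP2 (12.9 and 16.8), and further ones near OBI1, FAT4, ANO3 and FTMT. None of the 10 had a peak in a CM list. The EDIL3 region was already listed in hESC, with folds of 9.92 and 9.97, whereas the SYT1 region was in neither hESC list. The closed MRPS30 region lay 227223 bp from the transcript start and its opened neighbour 62574 bp, so that the same stretch of chromosome 5 held a top region of each class.

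Motif letters differed between the classes. The letters TGACAG of MEIS factors, partners of HOX and PBX proteins in the early heart, stood within 200 bp around the summit in 29.2% of opened regions (28.0 to 30.3) and 14.3% of closed ones (13.8 to 14.8), against 17.0% of all merged regions. AGATAA, bound by GATA factors such as GATA4 and GATA6, stood in 22.4% of opened (21.4 to 23.5) and 15.6% of closed regions (15.1 to 16.2), against 12.2% of all. Both classes therefore exceeded the share of all merged regions in GATA letters but only the opened class did so in MEIS letters. GGAATG of TEAD factors stood in 17.7% of opened and 13.1% of closed regions (13.9% of all), and AGGTCA of COUP-TF factors in 17.0% and 13.8% (13.4% of all).

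The reverse order held for other letters. GGTGTGA of T-box factors, the family of TBXT and EOMES, stood in 8.96% of closed regions (8.54 to 9.38) and 2.86% of opened ones (2.47 to 3.30), against 4.87% of all. ATGCAAAT of OCT factors such as POU5F1 stood in 524 closed regions (2.95%) and 21 opened regions (0.341%), against 1.39% of all. TGANTCA of AP-1 stood in 11.3% of closed and 5.24% of opened regions (7.59% of all), AGGTGGC of CTCF in 7.11% and 4.32% (6.83%), and ATCAAAG of the Wnt effectors TCF and LEF in 3.94% and 2.71% (2.59%). 

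The shares of the other letters differed by less than 2 percentage points between opened and closed regions. CAGATG, an E-box of HAND and TWIST factors, stood in 18.3% of opened and 17.1% of closed regions, against 15.9% of all merged regions. TNAAGTG of NKX factors stood in 11.2% and 11.8% (9.83% of all), and CTAATG of ISL and other LIM homeobox factors in 8.08% and 9.27% (6.95% of all). The shares were 14.6% and 16.2% for CAGCAGG of ZIC (15% of all), 4.50% and 5.51% for TGTTTAC of FOX (3.82%), 2.82% and 3.24% for CATTGTT of SOX (2.46%) and 0.422% and 0.671% for TAAAAATA of MEF2 (0.603%). All letters were read on both strands. A match describes the DNA and shows no binding, and regions of a class are not replicates of it.

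The course of a region before and after the step went along with its letters. Opened regions listed in both CM libraries held MEIS letters in 37.8% and GATA letters in 28.8%, against 23.9% and 18.9% of those in neither CM list. Closed regions in neither hESC list held GATA letters in 22.8% and T-box letters in 12.4%. The GATA share of these closed regions was close to that of the opened ones (22.4%), whereas closed regions in both hESC lists held 8.43% and 4.96%. OCT letters went the other way, with 5.02% of closed regions in both hESC lists and 2.06% in neither. The 500 closed regions with the highest folds held T-box letters in 14.6% (8.79% in the rest), and the 500 highest opened regions held GATA letters in 38.2% (21.1% in the rest).

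The GATA and MEIS shares of opened regions moved with 1 library. Regions listed in CP replicate 2 alone held GATA letters in 19.5% and MEIS letters in 25.6%, while those in CP replicate 1 alone held 6.93% and 15.7%. Without CP replicate 2, the shares in opened regions were 11.0% and 19.2%, against 14.6% and 15.2% of closed regions, so that the order of the classes turned for GATA letters and held for MEIS letters. Without CP replicate 1 they were 20.0% and 26.2%, against 14.4% and 14.2%. CP replicate 1 alone also held fewer regions that recurred in CM replicate 2 (2.91%) than CP replicate 2 alone (13%). The part of library quality in these shares was not tested.

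A longer run of letters recurred in closed regions. The run GGTGATTGGAT, in capitals in the EDIL3 window, was noticed after the windows had been read. It came from windows of closed regions with high folds, which are counted here, so that choice favoured a higher share in closed regions. It stood in 116 closed regions (0.654%) and in 6 of the 500 with the highest folds (1.20%), in 22 kept regions (0.0402%) and in 0 of 6161 opened regions, which allows a share of up to 0.0487%. Of the closed regions in neither hESC list 0.994% held it, and of those in both hESC lists 0.205%. Among regions of 1 library it stood in 0.137% and 0.424% for MES replicate 1 and 2 and in 0.0399% and 0.0385% for CP. The share among all merged regions was 0.183%, so that of these libraries only MES replicate 2 lay above it.

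Over genes the same excess was seen. When each region was given to the protein-coding gene with the nearest transcript start within 100 kb, 15.2% of 19962 genes had an opened region and 31.9% a closed one. This order turned without CP replicate 1, with 8876 genes with an opened and 7929 with a closed region. More opened than closed regions were found at 7.05% of genes and more closed than opened at 26.6%. An opened region at the promoter was found at 1.05% and a closed one at 3.39%. Genes with more opened or more closed regions were long, with a median length of 49840 and 54973 bp against 27476.5 bp for all.

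Genes were ranked by opened minus closed regions. CACNA1D, which encodes an L-type calcium channel of the heart and other excitable tissues, ranked highest with 6 opened regions and 1 closed region. NFIA, a nuclear factor I transcription factor, had 5 and 1, and IRF2BP2, NEBL and OLFM4 had 4 and 0 each. FHOD3, a formin that builds cardiac sarcomeres, had 7 opened and 4 closed regions. PDE1A had 5 and 2, and ECE1, HOXB1 and NCALD had 4 and 1 each. These and FHOD3 were 5 of 23 genes tied at a difference of 3. By closed minus opened regions, MSI2, an RNA-binding protein, ranked highest with 14 closed and 1 opened. DLG2, a synaptic scaffold protein, had 14 and 2, BCL11A 12 and 0, TENM2 12 and 3, and CNTN4 10 and 1, followed by PALLD, SORCS1, NTM, CTNNA2 and NRXN3.

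The gene lists were read against the same background, in which 3969 regions near genes were opened and 10924 closed, or 36.3 opened per 100 closed. The 30 sarcomere genes were the only list of 13 with more opened than closed regions, 23 against 12. Of these genes, 8 (26.7%) had more opened regions and 4 (13.3%) more closed, against 7.05% and 26.6% of all genes. Without MES replicate 1 the sarcomere counts were 24 opened and 53 closed regions, so that their order turned with that library. The 32 cardiac transcription factors had many regions of both kinds, 33 opened and 57 closed. On the opened side were 6 genes (18.8%) and on the closed side 17 (53.1%), both above the shares of all genes. The 22 mesoderm and streak factors had 8 and 17, the 16 signals of the streak 4 and 15 and the 22 genes of Wnt feedback and targets 9 and 26. Per 100 closed regions, the cardiac factors had 57.9 opened and the streak factors 47.1, above the background. The signals had 26.7 and the Wnt genes 34.6, below it.

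Among lists of other lineages, the neural one had the fewest opened per closed regions, 9.09 per 100 closed. The 20 neural ectoderm genes had 2 opened and 22 closed regions. On the opened side were 0 genes and on the closed side 13 (65.0%), against 7.05% and 26.6% of all genes. The other 4 lists of this kind had more opened per closed regions than all genes. The counts were 10 and 24 for 20 endothelial and blood genes, 9 and 20 for 18 endoderm genes, 10 and 12 for 20 epicardial, stromal and smooth muscle genes and 11 and 28 for 18 retinoic acid genes. The 25 calcium handling and channel genes had 20 and 42, and the 21 pluripotency genes 5 and 19. The 20 housekeeping genes, with 3 and 10, were near the background.

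Sarcomere genes had opened regions at transcript starts and in introns. NEBL, which encodes nebulette of the cardiac Z-disc, had an opened promoter region with folds of 4.33 and 6.64 in CP replicate 1 and 2. Another NEBL promoter region was kept, with 5.03 and 5.82 in MES and 5.87 and 5.50 in CP. The 3 opened introns of NEBL had 5.63 and 12.0, 4.91 and 7.26, and 5.08 and 12.1 in CP. All 4 opened regions of NEBL were listed in both CM libraries and, by definition, in neither MES library. ACTC1, cardiac actin, had 3 opened regions and no closed region, the highest with 5.88 and 10.1. TPM1, a tropomyosin, had 3 opened and 1 closed, MYH6, the atrial myosin heavy chain, 2 and 0, and ACTN2, the alpha-actinin of the Z-disc, 1 and 0. Promoter regions of the light chain MYL4 (3.62 and 6.87) and of LDB3 (2.51 and 2.93) opened as well. MYL4 also had a kept promoter region, with 4.19 and 4.00 in MES and 4.98 and 10.7 in CP.

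TTN, the giant spring of the sarcomere, had an opened and a kept promoter. An internal transcript start lay in the opened region chr2:178807213-178807856, with folds of 7.20 and 11.5 in CP, 8.25 and 8.54 in CM and 3.58 in hESC replicate 2. The upstream start lay in the kept region chr2:178830424-178830857, with 7.55 and 7.69 in MES and 7.26 and 8.63 in CP. Its log2 difference of 0.19 (SE 0.18, limma, adjusted p = 0.670) did not pass the threshold. TNNI1, slow skeletal troponin I, had a closed (3.60 and 3.06 in MES) and an opened promoter region (5.68 and 10.1 in CP) beside each other. TNNT2, cardiac troponin T, had neither, and its kept promoter had 4.46, 3.50, 3.15 and 3.60 in MES replicates 1 and 2 and CP replicates 1 and 2.

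Cardiac regulators were not uniformly opened. HEY1, a target of Notch signalling, had 3 opened regions and GATA4 had 2, with no closed region at either. TBX20 had 3 of each kind, and the opened window printed above had folds of 5.34 and 6.46 in CP and 5.02 and 5.06 in CM. HAND1 had 2 opened (4.72 and 6.42, and 3.21 and 5.21) and 1 closed region (3.86 and 3.89 in MES). ISL1, a factor of the second heart field, had 2 opened and 3 closed regions, with a closed promoter region (3.39 and 3.02 in MES) beside a kept one (6.56 and 6.02 in MES, 6.54 and 7.08 in CP). MEF2C had 1 opened and 6 closed, HAND2 0 and 4, NKX2-5 0 and 2 and GATA6 0 and 2. TBX5 and GATA5 had neither.

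Peaks near the progenitor markers were thus present in both stages. The regions given to NKX2-5 numbered 7 and 10 in the MES lists and 7 and 7 in the CP lists, and those given to GATA4 16 and 24 against 23 and 23. None of the kept promoters of GATA4, HAND1, ISL1 or TBX20 differed past the threshold. For GATA4 the log2 difference was 0.42 (limma, adjusted p = 0.348). The stage labels could therefore not be read from these promoters and counts alone, and the counts came from lists of unequal length. A kept region given to HAND1, away from its promoter, was higher in CP (log2 difference 1.60, limma, adjusted p = 0.00395).

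Of the 22 mesoderm and streak factors, 11 had a closed region and 6 an opened one, and 18 had a kept promoter region. Among all 19962 protein-coding genes, 31.9% had a closed region and 15.2% an opened one, and 14927 had a kept promoter region. The list thus lay above all genes in its share with a closed region and also in its share with an opened one. TBXT, the brachyury factor, had 2 closed regions with folds of 6.10 and 10.8 and of 7.12 and 8.55 in MES, and 14 and 17 of its regions were listed in MES against 10 and 10 in CP. Its promoter had a peak in all 4 libraries, with 4.88 and 5.59 in MES and 3.79 and 4.64 in CP (log2 difference -0.19, SE 0.21, limma, adjusted p = 0.707). The closed EOMES region of the printed window had 5.12 and 6.58 in MES and was already listed in hESC with 7.09 and 7.14. EOMES also had an opened region (6.51 and 10.6 in CP). MIXL1 had 1 closed region with low folds of 2.88 and 2.92, and LHX1 had 3 closed regions. MESP1, the early cardiac mesoderm factor, had neither, and its kept promoter had 4.18 and 3.93 in MES and 5.20 and 7.14 in CP (log2 difference 0.72, SE 0.21, limma, adjusted p = 0.106).

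Some signal and pluripotency genes had a closed promoter region. CER1, an inhibitor of NODAL made in the streak and endoderm, had one with 4.30 and 4.75, beside a kept promoter region with 8.86 and 10.0 in MES and 6.01 and 6.01 in CP (log2 difference -0.52, SE 0.19, limma, adjusted p = 0.223). TCF7, a Wnt effector, had one with 4.03 and 3.36, also beside a kept promoter region, and WNT3A had one with 2.22 and 2.85 and no kept promoter region. EVX1 had 2 closed promoter regions (2.53 and 2.88, and 2.39 and 2.51). NANOG, a core pluripotency factor, had 2 closed promoter regions (3.77 and 2.98, and 4.59 and 4.68), which were also in both hESC lists. POU5F1 had neither, and its kept promoter did not differ (log2 difference 0.02, limma, adjusted p = 0.975). SOX2 differed from these, with 2 opened regions in its surroundings (5.13 and 10.1, and 8.12 and 12.9 in CP).

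Opened promoter regions were also found outside the sarcomere list. PRDM14, a pluripotency gene, had one with 2.53 and 3.18, and WNT3 one with 4.22 and 6.91, and its closed region lay in an intron (4.13 and 3.74). Those of other lineages belonged to APOA1 (4.01 and 4.99), FOXA1 (3.15 and 2.91), GATA3 (2.86 and 3.83), the proteoglycan LUM (3.99 and 6.81) and smooth muscle actin ACTA2 (3.30 and 6.68). PRDM14, WNT3, FOXA1, GATA3 and ACTA2 also had a promoter region that was kept. POPDC2, a cyclic AMP binding protein of the heart, was chosen after its values were seen and had 7.45 and 12.1. Closed promoter regions included those of SLC8A1 (4.30 and 4.25), the cardiac sodium-calcium exchanger, and MEIS1 (3.27 and 3.14), whose gene family reads the letters most common in opened regions. SLC8A1 also had a kept promoter region, with 5.16 and 5.07 in MES and 6.19 and 6.33 in CP. HOXB1, with 4 opened regions, had its promoter closed.

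In kept regions the level could be tested, since the definition used presence alone. The log2 fold over background of the 4 libraries, centred on each library's median, was higher in CP at 433 of 54777 regions (0.790%) and higher in MES at 563 (1.03%; limma, adjusted p under 0.05). Among those higher in CP the differences ran from 0.65 to 1.91 on the log2 scale with a median of 1.03, and among those higher in MES from -1.75 to -0.65 with a median of -0.98. The counts rested on the scaling and on single libraries. Without centring, limma called 0 in either direction, with 792 and 4460 at an unadjusted p under 0.05. The calls higher in CP and in MES were 228 and 55 without MES replicate 1, 76 and 17 without MES replicate 2, 2627 and 3438 without CP replicate 1 and 876 and 1557 without CP replicate 2.

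The kept regions that differed were set beside all kept regions. Those higher in CP were listed in the CM libraries in 90.1% and 75.8% and in the hESC libraries in 43.4% and 64.4%. For those higher in MES the shares were 32.5% and 11.9% in CM and 59.7% and 68.9% in hESC. Of all kept regions, 76.5% and 58.3% were listed in CM and 84.1% and 90.9% in hESC, so that both groups lay below them in hESC. MEIS letters stood in 38.6% and GATA letters in 26.3% of those higher in CP, against 14.0% and 8.77% of all kept regions. GATA letters were also common among those higher in MES, with 21.1%, and MEIS letters stood there in 17.9%. T-box letters stood in 10.5% of those higher in MES and 3.46% of those higher in CP (3.82% of all kept regions). AP-1 letters stood in 15.3% and 3.70%. A promoter was touched by 25 of the 433 (5.77%) and 9 of the 563 (1.60%), against 29.8% of all kept regions.

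HAND1 held a kept region among the 10 with the largest gain. It lay 98551 bp from the transcript start, with folds of 3.42 and 3.11 in MES and 7.14 and 11.4 in CP, without overlap of the stages (log2 difference 1.60, SE 0.22, limma, adjusted p = 0.00395). It was listed in both CM libraries and in no hESC library. The others were nearest to ADAM22 (3.39 and 3.65 in MES, 9.40 and 15.4 in CP, log2 difference 1.91), TYRP1, FIGN, DPP10, SEMA3A, YIPF5, GRIK2, NEGR1 and GALC. The 10 with the largest loss were nearest to SNX16 (14.8 and 16.8 in MES, 4.91 and 3.72 in CP, log2 difference -1.75), EPHA7, PKN2, KCMF1, SGCZ, THSD7A, PFN2, GRM8, PIK3C2G and NEK7. EPHA7 encodes an ephrin receptor, with 15.2 and 14.7 in MES and 4.06 and 4.41 in CP.

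Kept regions given to PDGFRA, the receptor that marks cardiogenic mesoderm, went in opposite directions. The rising one lay 31832 bp and the falling one 33506 bp from a transcript start of the gene. At chr4:54197071-54197825 the folds were 3.84 and 5.67 in MES and 11.9 and 11.4 in CP (log2 difference 1.45, limma, adjusted p = 0.00539). At chr4:54276652-54277510 they were 8.04 and 10.5 in MES and 3.98 and 4.76 in CP (log2 difference -0.95, limma, adjusted p = 0.0277). Stages did not overlap at either region. On centred values this held for all 433 and 563 regions that passed and for 25820 of all 54777 kept regions.

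Signal genes were found on both sides. A region 22281 bp from a transcript start of ROR2, a Wnt receptor, was higher in CP by 1.23 on the log2 scale. Regions of BMP4 (-0.86), LEF1 (-0.91) and SOX17 (-0.90), genes of the streak and endoderm, were lower. Regulators with a region higher in CP were MEIS1 (0.94), RARB (0.90) and PRDM1 (0.88). The liver genes AFP (0.99) and HNF4A (0.92) and the housekeeping gene YWHAZ (1.02) had such a region as well. Those of MEIS1, RARB and YWHAZ lay 88708, 89490 and 98576 bp from a transcript start. In the sarcomere list a region upstream of TTN rose by 0.76 and an intron of NEBL fell by 0.80. An intron region of CACNB2, a calcium channel subunit, fell by 1.03. LIN28A was the only list gene with a promoter region that passed (0.78). The folds there were low, 2.17 and 2.22 in MES and 2.72 and 4.38 in CP. The LIN28A promoter region with higher folds did not pass (log2 difference 0.48, limma, adjusted p = 0.288).

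Of the 25 kept promoter regions higher in CP and the 9 lower, some are given here, picked after their values were seen. BMP10, a heart-specific signal of the BMP family, had 3.39 and 4.05 in MES and 6.97 and 13.1 in CP (log2 difference 1.50, SE 0.23, limma, adjusted p = 0.00645). TRIM55, a muscle ring finger protein, rose by 1.42, MYLK3, the cardiac myosin light chain kinase, by 0.95, NKX2-3 by 0.93 and the receptor BMPR1B by 1.01. Promoters of MAGEB3 (1.44) and HDAC2 (1.23) were also higher. TBX22 (-0.89), CALD1 (-0.92) and FGFBP1 (-0.92) were lower in CP.

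**Figure D2:**
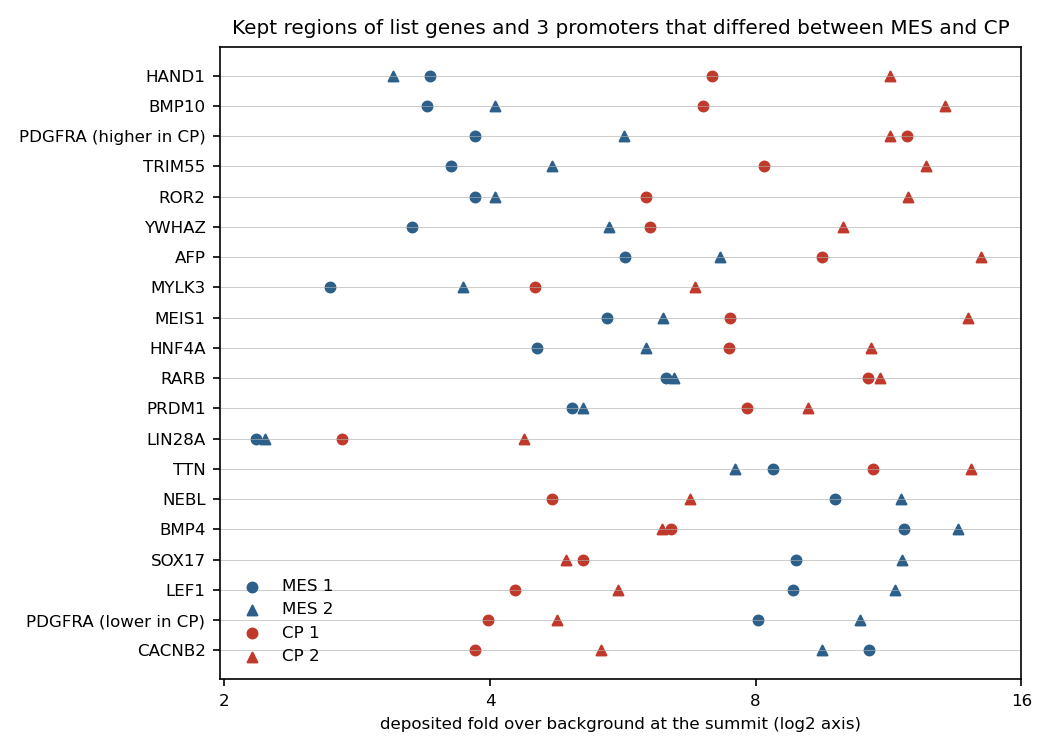
Fold over background at the summit (x axis, log2 scale) in each MES and CP library for the kept regions of list genes that passed the test and for the promoters of BMP10, TRIM55 and MYLK3 (y axis). The CP libraries sat above both MES libraries from HAND1 to TTN and below both from NEBL to CACNB2.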

How the data were processed

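ATAC-seq was made from RUES2 cells at 4 stages, with 2 libraries per stage. The authors aligned the reads to hg38 (BWA-MEM), filtered them for primary, well-mapped alignments, took out duplicates (Picard) and ran MACS2 on every library by itself, so that replicates were not pooled. The submitters' processing notes name BWA 0.7.13, MACS2 2.1.0 and bedtools 2.26.0. Each deposited peak carries the ratio of its pileup to the local background (the fold), a −log10 p-value and a −log10 q-value. The deposited score, meant for display, was not used. Where a list holds no peak, the signal missed the authors' q threshold of 0.01 in that library, and libraries with more reads reach it at weaker sites. The lists hold no read totals, so the depth is unknown.

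Peaks on chromosomes 1 to 22 and X were merged with bedtools 2.31.1 at an overlap of at least 1 bp. Genes came from GENCODE 44 on GRCh38. Motif letters were searched in 200 bp around the highest summit, and kept regions were compared on centred log2 folds with limma 3.58.1 (trend, two-sided, Benjamini-Hochberg adjusted over all kept regions, threshold 0.05). Regions and genes were named by rule, namely 21 marker genes, list genes with an opened or closed promoter or large difference in region counts, and the 10 highest of each kind, apart from a few genes and windows that are not reported here. The members, lists and tests were chosen with earlier results of these data known. Scripts in Python 3.11.15 and R 4.3.3 were tested on simulated data.

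The alternatives were stricter lists (−log10 q from 5), equally long lists, windows around summits, a wider GATA site, other scalings, a replicate block, all 8 libraries in the fit and each library left out. Same-numbered replicates of MES and CP deviated together only weakly (correlation 0.132 over kept regions), and the labels give no shared batch.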

Additional observations from a re-analysis of the deposited data

How the results depend on the processing

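Of 131 alternative values, 69 stayed within the spread allowed (for counts, 1.5 times) and 62 moved. The order of opened and closed counts, of regions and of genes, turned without CP replicate 1, that of the GATA shares without CP replicate 2 and that of the sarcomere counts without MES replicate 1. The GATA share in opened regions was 24.5% with a −log10 q of at least 5, 20.0% with 200 bp around each summit and 43.1% with the wider site (36.1% in closed and 28.2% in all merged regions), and that in closed regions was 17.3% with lists of equal length. Alternatives for the MEIS, T-box and OCT shares and for the sarcomere counts were chosen after seeing the data. The MEIS share in opened regions was 31.1% with the stricter q and 27.3% around summits, and the T-box share in closed regions 10.0% with lists of equal length. Kept regions higher in CP and in MES numbered 0 and 0 without centring (limma, with 792 and 4460 at an unadjusted p under 0.05), 1722 and 2212 on summit pileups and 68 and 57 of 27952 with all 8 libraries in the fit. The cause was not tested for these.

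With each library left out in turn, opened regions ranged from 7297 to 32386, closed from 24844 to 60284 and kept from 56000 to 65456. Opened regions in both CM lists ranged from 1791 to 3924 and closed ones in both hESC lists from 6966 to 11114. The GATA share ranged from 11.0% to 21.3% in opened and from 12.6% to 14.6% in closed regions, the MEIS share from 19.2% to 28.1% and from 14.2% to 15.2%, and in closed regions the T-box share from 7.09% to 8.41% and the OCT share from 2.12% to 2.89%. Genes with an opened region ranged from 3497 to 8876, genes with a closed region from 7929 to 11569, and sarcomere regions from 24 to 59 opened and from 18 to 53 closed. Kept calls ranged from 76 to 2627 higher in CP and from 17 to 3438 higher in MES, with the lone library of a stage assumed to vary like the other stage. Of 69 named kept regions, 24 stayed past the threshold without MES replicate 1, 25 without MES replicate 2, 64 without CP replicate 2 and 69 without CP replicate 1.

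With a replicate block, kept calls were 451 and 625, and 67 of the 69 named regions stayed past the threshold. With 2 pairs and a correlation of 0.132, it cannot be told whether libraries of the same number share a batch. Peak lists without read totals do not show how far depth sets the counts.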
